A study of Mus musculus with 24 samples.

Results

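The axon guidance genes of mouse skin were described in unwounded skin and in day 3 wounds of the abdomen, back and cheek. They comprised the semaphorins of classes 3 to 7 with their plexin and neuropilin receptors, the Slit ligands with their Robo receptors, the netrins with the receptors of the Dcc, neogenin and Unc5 type, and the ephrins with the Eph receptors. They were chosen by gene symbol, which gave 70 genes of the 18368 in the table. The measurement was RNA-seq of whole skin from 12 CD1 mice, an outbred stock, which were 7 weeks old and for which the labels name no engineered allele. Each mouse contributed a single site (4 mice per site) and gave a library of adjacent unwounded skin and a library of a 2 mm full-thickness excisional wound collected 3 days after wounding, both sampled with a 2 mm punch. Abdomen and back mice carried 2 wounds and cheek mice 1, and whether the 2 wounds of a mouse were pooled is not given. The study chose these sites because the dermis of the abdomen derives from lateral plate mesoderm, that of the back from paraxial mesoderm and that of the cheek from the neural crest, and it asked how skin and its response to wounding differ between them.

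Guidance ligands attract or repel the growing tip of an axon or a migrating cell. Class 3 semaphorins, Slits and netrins are secreted, whereas most other semaphorins and the ephrins stay attached to the cell that makes them and act on contact, and the receptors pass the signal on to the actin cytoskeleton. The same families act outside the nervous system, in blood and lymphatic vessels, immune cells, fibroblasts and epithelia, and Eph receptors and ephrins are known to set boundaries between epithelial cells in the epidermis and hair follicle. The cell bodies of the sensory neurons that innervate skin lie in ganglia outside it, so RNA of a skin punch comes mainly from other cells.

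The values were FPKM (fragments per kilobase of transcript, scaled to a common number of mapped fragments). They summed to 490830 to 608888 per library, with 15781 to 16577 genes above 0, and they hold no counts, so the depth of a library and the counting error of a value are unknown. Skin libraries held little neuronal RNA: all 8 neuron markers examined averaged under 0.5 FPKM, and their summed level was 0.26 to 1.26 FPKM per library. In whole skin, fewer cells of a type and less RNA per cell cannot be told apart.

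A single library stood apart. The labels place the hair cycle of all mice in telogen, the resting phase, but the unwounded cheek library of mouse 4 had 1651 FPKM of Krt71 and 226 FPKM of Krt35, keratins of the growing hair, against at most 27.3 and 4.74 FPKM in the other 11 unwounded libraries. The summed level of 8 genes of growing hair, a list made after their values were seen, was 4079 FPKM in that library, 74.5 in unwounded back of mouse 2, 36.0 in unwounded cheek of mouse 3 and 5.87 to 11.4 in the other unwounded libraries. The wound library of cheek mouse 4 had 4.95 FPKM. Where a result that involves the unwounded cheek passed its threshold only with this mouse, the result without it is therefore also given. The other cheek wound effects that passed are mostly given with all mice only, and their size could change without it. For example, the log2 change went from -0.92 to -1.15 for Sema3b and from -0.37 to -0.29 for Efnb2.

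The promoter sequences of 5 members are shown because the results turn on these genes: Sema7a and Plxnd1 had the largest mean rise and Sema3d and Sema3c the largest mean fall in wounds among the members called at all sites that have a single promoter in the RefSeq table (7 of 14), and Slit2 rose in cheek wounds. Each is the 250 bases before the annotated start, 5′ to 3′ on the strand of the gene (GRCm38.p6). Capitals mark GC boxes (GGGCGG) and TATA boxes (TATAAA) found on either strand. Sema7a lies on the plus strand at chr9:57939862-57940111, Plxnd1 on the minus strand at chr6:115995006-115995255, and Sema3d, Sema3c and Slit2 on the plus strand at chr5:12382916-12383165, chr5:17574566-17574815 and chr5:47982905-47983154.
Sema7a: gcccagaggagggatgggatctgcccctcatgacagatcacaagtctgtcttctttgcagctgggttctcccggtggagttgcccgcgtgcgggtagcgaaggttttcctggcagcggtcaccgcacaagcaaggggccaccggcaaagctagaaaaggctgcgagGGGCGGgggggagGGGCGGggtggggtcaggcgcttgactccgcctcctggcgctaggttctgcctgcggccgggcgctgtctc
Plxnd1: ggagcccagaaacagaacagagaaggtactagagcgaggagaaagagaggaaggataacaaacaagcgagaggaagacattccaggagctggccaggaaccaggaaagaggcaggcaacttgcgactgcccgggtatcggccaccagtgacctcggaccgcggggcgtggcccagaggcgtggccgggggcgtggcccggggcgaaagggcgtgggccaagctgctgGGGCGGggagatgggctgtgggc
Sema3d: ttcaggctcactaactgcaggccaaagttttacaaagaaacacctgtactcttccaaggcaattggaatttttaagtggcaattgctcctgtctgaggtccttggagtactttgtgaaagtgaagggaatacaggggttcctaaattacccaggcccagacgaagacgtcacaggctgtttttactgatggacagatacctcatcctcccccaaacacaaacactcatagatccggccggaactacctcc
Sema3c: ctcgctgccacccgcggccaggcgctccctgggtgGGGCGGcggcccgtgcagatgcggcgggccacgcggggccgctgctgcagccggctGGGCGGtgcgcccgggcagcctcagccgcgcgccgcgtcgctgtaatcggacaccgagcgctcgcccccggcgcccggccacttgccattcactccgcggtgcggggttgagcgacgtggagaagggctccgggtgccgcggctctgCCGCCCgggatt
Slit2: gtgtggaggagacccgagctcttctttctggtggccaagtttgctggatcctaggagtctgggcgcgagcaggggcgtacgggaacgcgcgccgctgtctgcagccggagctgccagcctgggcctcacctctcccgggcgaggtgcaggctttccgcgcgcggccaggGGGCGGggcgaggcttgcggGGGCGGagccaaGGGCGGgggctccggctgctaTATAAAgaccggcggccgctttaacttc
The GC content of these windows was 66.4% for Sema7a, 64.8% for Plxnd1, 46.8% for Sema3d, 78.4% for Sema3c and 69.6% for Slit2, against a median of 52.4% over 32851 promoters of this length. A GC box occurred 2 times in Sema7a, 1 time in Plxnd1, 3 times in Sema3c and 3 times in Slit2, with no match in Sema3d, and a TATA box occurred only in Slit2 among the 5. Of all promoters, 32.7% held a GC box and 12.4% a TATA box. None of the 5 windows held the AP-1 element TGANTCA (6.75% of all promoters) or the cyclic AMP response element TGACGTCA (1.55%). Across the 76 promoters of the 60 members in the RefSeq table, 54 held a GC box, 2 a TATA box, 3 an AP-1 element and 1 a cyclic AMP response element.

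Of the 70 members, 57 reached 0.5 FPKM in at least 4 of the 24 libraries and were tested for wound effects. The 13 others were Dcc, Epha5, Epha6, Epha7, Epha8, Epha10, Ntn3, Ntn5, Plxnb3, Robo3, Sema5b, Unc5c and Unc5d, whose highest value in any library was 0.65 FPKM (Ntn3). Dcc, the netrin receptor through which Ntn1 attracts axons, did not exceed 0.05 FPKM, and Robo3, a receptor of commissural axons, did not exceed 0.01 FPKM. Every class 3 semaphorin (7), Slit (3), neuropilin (2), ephrin (8) and EphB receptor (5) passed the filter, together with 12 of 13 membrane semaphorins, 8 of 9 plexins, 3 of 4 Robo receptors, 2 of 4 netrins, 3 of 6 netrin receptors and 4 of 9 EphA receptors.

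The abundant members were those of contact signalling. The highest mean level over the 24 libraries was that of the ephrin Efna3 (55.4 FPKM), which lies next to Efna4 and Efna1 on chromosome 3, followed by Efna1 (43.7 FPKM), the plexin Plxnb2 (43.3 FPKM), a receptor for class 4 semaphorins, and Ephb6 (34.6 FPKM), an Eph receptor without kinase activity. Sema4a led the membrane semaphorins (31.6 FPKM), Epha1 the EphA receptors (28.8 FPKM) and Efnb2 the ephrin-B ligands (27.1 FPKM). The highest member of the class 3 semaphorins, Slits and netrins, all secreted, was Sema3f (23.9 FPKM), Slit3 (18.6 FPKM) and Ntn1 (10.3 FPKM), and that of the neuropilins, netrin receptors and Robo receptors was Nrp1 (14.6 FPKM), Neo1 (12.1 FPKM) and Robo1 (4.05 FPKM). The summed level of the class 3 semaphorins was 101 ± 10.6 FPKM in unwounded abdomen, 101 ± 9.57 in back and 89.2 ± 8.46 in cheek (mean ± SD, n = 4), and 64.6 ± 5.75, 62.4 ± 4.04 and 65.0 ± 7.66 in the wounds of these sites, without overlap between unwounded and wound libraries at any site. The summed plexins went the other way, from 82.5 ± 11.6, 72.8 ± 7.82 and 88.5 ± 11.7 FPKM in unwounded skin to 99.2 ± 12.7, 106 ± 9.59 and 117 ± 5.99 in wounds, with libraries that overlapped in the abdomen only.

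**Figure D1:**
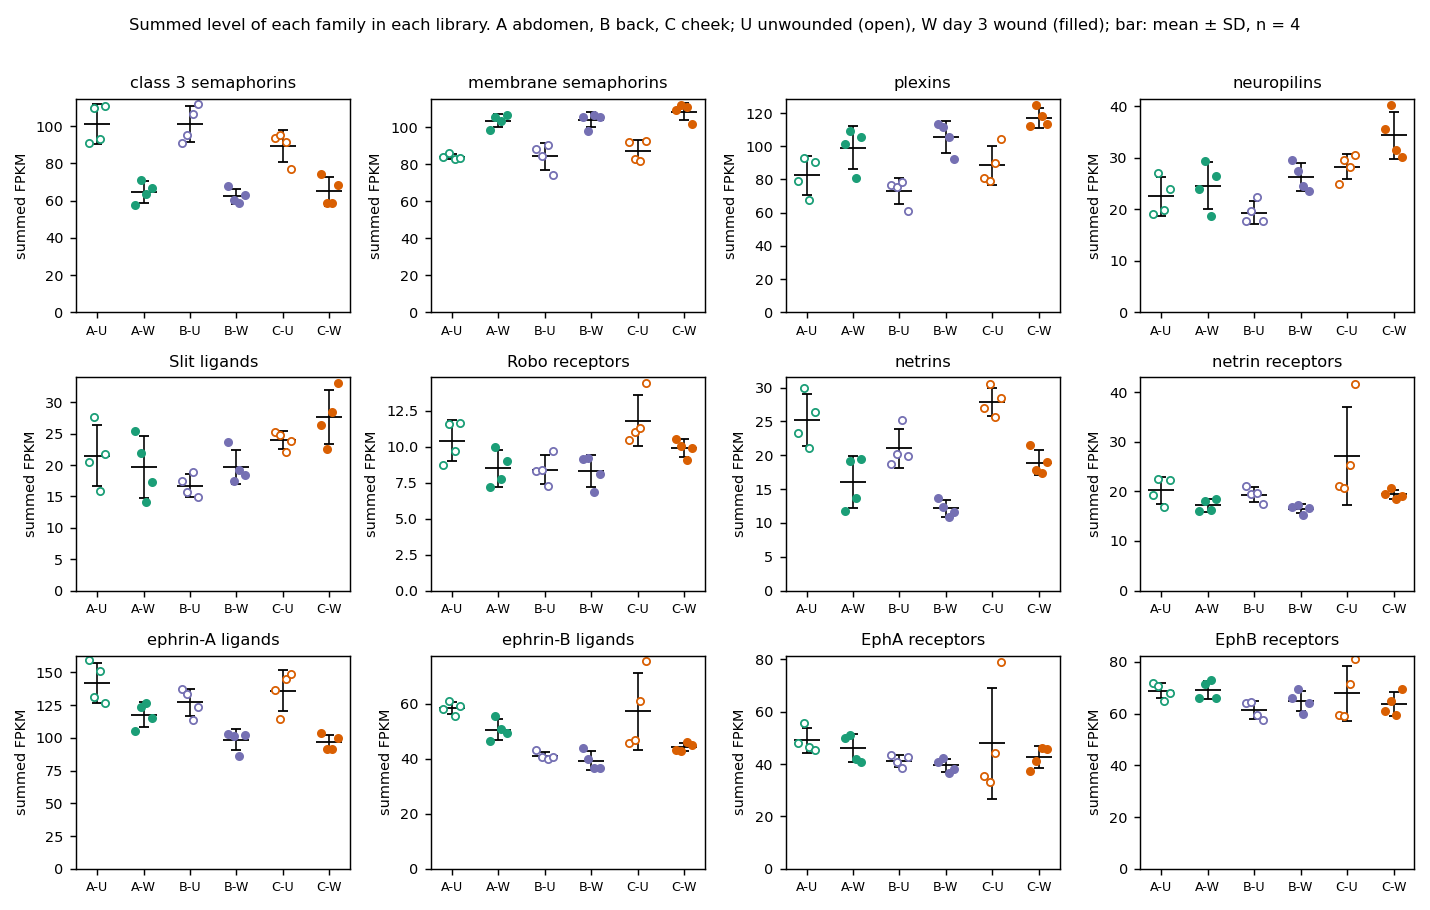
Summed FPKM of the members of each family (vertical axes, from 0) in each library of the 6 groups (horizontal axes). Points are libraries and bars are the mean ± SD of 4 mice. The class 3 semaphorins lie lower in the wounds of all 3 sites, the membrane semaphorins lie higher (74.2 to 92.4 FPKM in unwounded libraries, 98.0 to 112 in wounds), and 1 unwounded cheek library, that of mouse 4, lies far above the others for the EphA receptors (78.8 FPKM) and the netrin receptors (41.7 FPKM).

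Wound and unwounded libraries of the same mice were compared first, to ask which members changed with wounding at each site. The test was limma on log2(FPKM + 0.5) with a term for each mouse, and changes are given on this scale, on which those of low genes are understated, with their standard errors. A member was called when its p was under 0.05 after Benjamini-Hochberg adjustment for the 14423 tested genes. The exact sign-change test over 4 mice cannot go below 0.125, so the number of mice that moved the same way is given with it. In the abdomen 8 members rose and 11 fell, in the back 14 rose and 11 fell, and in the cheek 15 rose and 13 fell, of 57 tested. Among all genes tested, 16.9% rose and 16.0% fell in the abdomen, 28.0% and 17.9% in the back, and 19.7% and 16.9% in the cheek. The shares of the members were 14% and 19.3%, 24.6% and 19.3%, and 26.3% and 22.8%. They were near those of all genes in abdomen and back and higher in the cheek, a difference that was not tested. The median change of the members was 0.01, 0.03 and -0.02 at the 3 sites, beside -0.01, 0.07 and 0.01 for all genes. At a stricter threshold of 0.001, 4, 9 and 6 members were called, beside 4.96%, 14.4% and 8.69% of all genes, and only Plxnd1 was among them at all 3 sites. At an adjusted p under 0.05, 8 members rose at all 3 sites (12.0% of all genes did) and 6 fell at all 3 sites (7.15% of all genes).

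**Figure D2:**
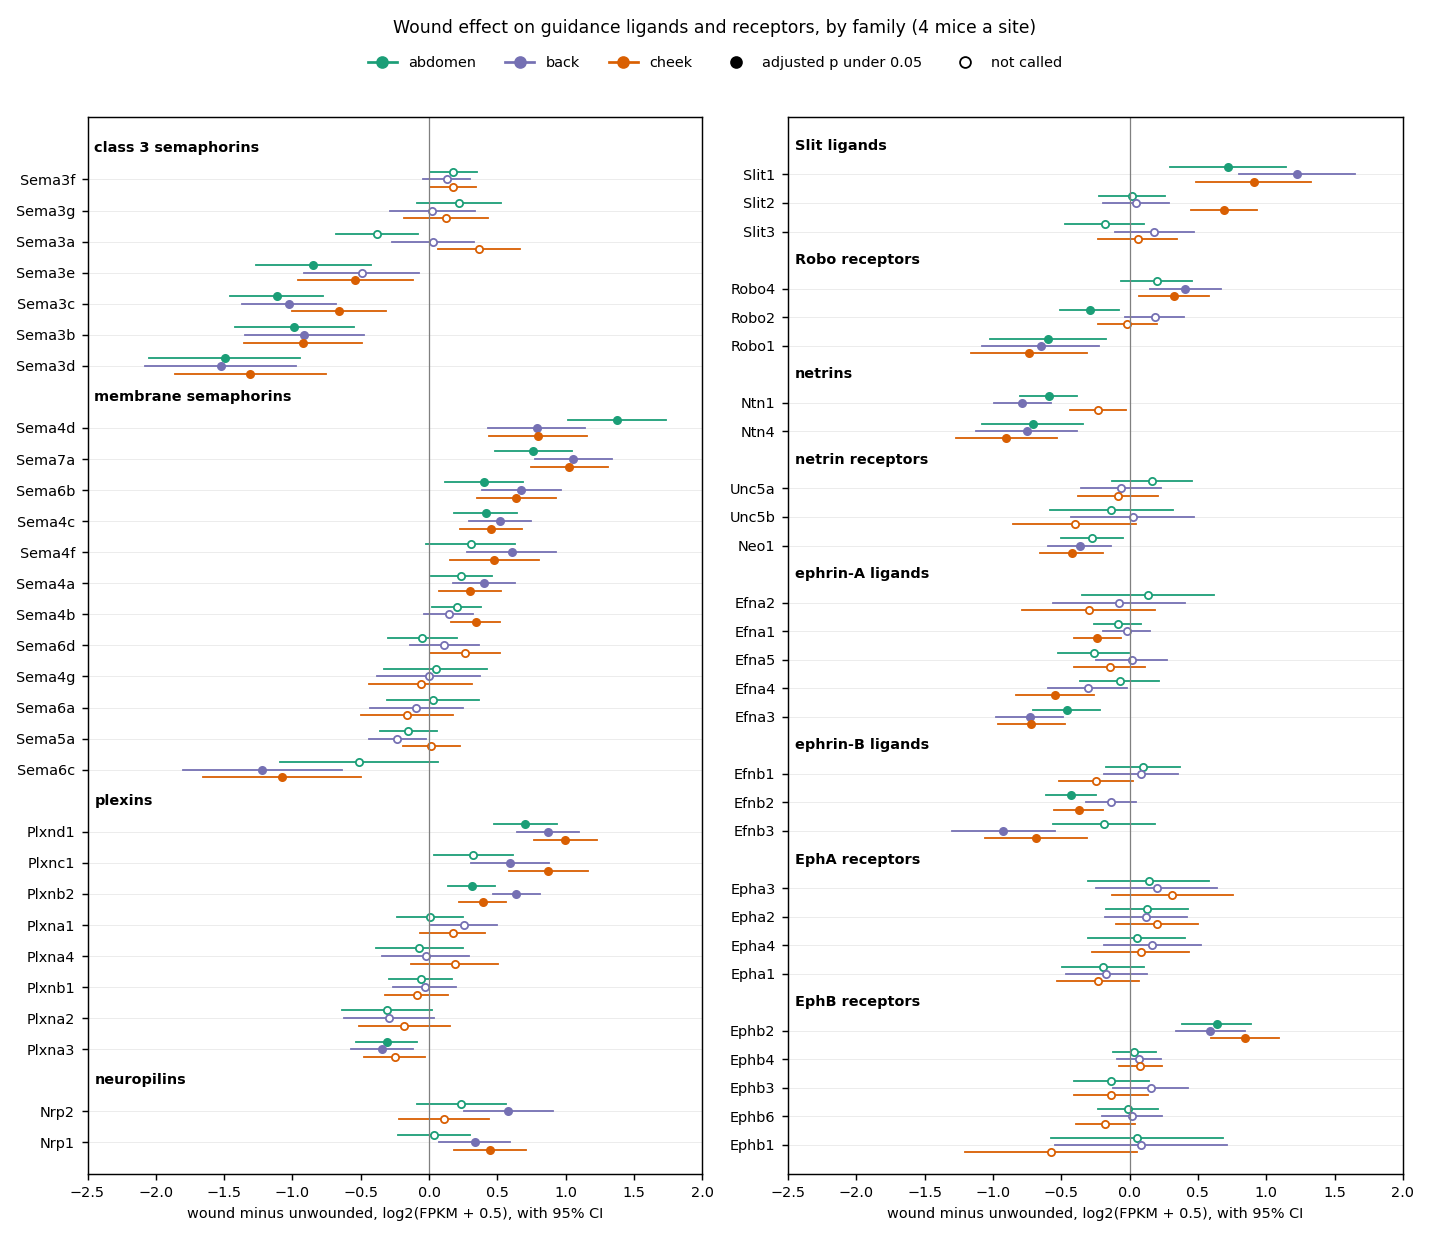
Wound minus unwounded difference of the 57 tested members on the log2(FPKM + 0.5) scale (horizontal axis) with 95% confidence intervals, by family, in abdomen, back and cheek. Filled points passed an adjusted p of 0.05. Sema3b, Sema3c and Sema3d lie left of 0 at all sites, most called membrane semaphorins and plexins lie right of 0, and Slit2 has a filled point for the cheek alone.

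The secreted class 3 semaphorins, which signal through neuropilins and class A plexins, included Sema3d, the member with the largest fall at each site. Library values are given in the order of mice 1 to 4. None of the 7 rose at any site, and 4 fell in the abdomen, 3 in the back and 4 in the cheek. Sema3d was 10.5, 18.3, 13.3 and 19.4 FPKM in unwounded abdomen and 3.05, 6.11, 4.59 and 7.02 in its wounds. Back skin had 14.2, 10.2, 11.9 and 22.1 in unwounded libraries and 5.48, 4.28, 3.95 and 4.58 in its wounds, and the cheek had 16.6, 11.6, 14.8 and 9.76 in unwounded skin and 9.28, 5.39, 2.00 and 5.47 in its wounds. All 12 mice fell and the groups did not overlap at any site, with log2 changes of -1.50 ± 0.25, -1.52 ± 0.25 and -1.31 ± 0.25 in abdomen, back and cheek (adjusted p = 0.00132, 5.57e-04 and 0.00203). Sema3c, which also signals in vessel development, was 19.2, 28.5, 23.6 and 31.8 FPKM in unwounded abdomen against 8.59, 13.3, 11.5 and 13.0 in wounds, 23.0, 26.5, 30.7 and 32.3 in unwounded back against 17.6, 14.1, 11.2 and 11.8 in its wounds, and 25.7, 29.0, 23.7 and 17.6 in unwounded cheek against 18.8, 13.9, 12.9 and 14.1 in its wounds. The changes of Sema3c were -1.12 ± 0.16, -1.03 ± 0.16 and -0.66 ± 0.16 (adjusted p = 3.09e-04, 2.63e-04 and 0.00649), and only the cheek groups overlapped, where the unwounded library of mouse 4 was the lowest. Sema3b fell from 27.8 ± 2.31 to 14.1 ± 3.20 FPKM in the abdomen, from 31.7 ± 5.84 to 16.7 ± 3.74 in the back and from 20.9 ± 5.16 to 10.9 ± 3.63 in the cheek (mean ± SD, n = 4), changes of -0.99, -0.91 and -0.92 (adjusted p = 0.00333, 0.00301 and 0.00378).

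Sema3e, which differs from its relatives in binding Plxnd1 without a neuropilin, fell in abdomen and cheek and not past the threshold in the back. Its values were 2.65, 3.83, 2.36 and 2.94 FPKM in unwounded abdomen and 1.29, 1.71, 1.11 and 1.51 in wounds. The back libraries held 1.06, 2.91, 2.15 and 3.10 in unwounded skin and 1.79, 1.54, 1.01 and 1.33 in its wounds, and the cheek had 4.20, 3.70, 3.66 and 3.29 in unwounded skin and 3.05, 2.34, 1.90 and 2.39 in its wounds. The changes were -0.85, -0.49 and -0.54 (adjusted p = 0.00616, 0.0544 and 0.0464), and the cheek call held in 6 of 9 other settings and in 2 of 12 fits without a mouse, with an adjusted p of 0.0663 without cheek mouse 4 and 0.165 without cheek mouse 3. Sema3a, the founding axon repellent of the class, did not pass at any site (-0.38, 0.03 and 0.36, adjusted p = 0.0515, 0.893 and 0.0562), nor did Sema3f (0.18, 0.13 and 0.18) or Sema3g (0.22, 0.02 and 0.12). The sum of the fibroblast markers was lower in wounds as well: the level of 5 markers, none at 0, was 10236 to 14349 FPKM in unwounded abdomen and 6363 to 9216 in its wounds, 11874 to 17568 and 6239.9 to 8857 in the back, and 6606 to 11189.7 and 3940.0 to 7382 in the cheek, ratios of the means of 0.591, 0.515 and 0.601. The abundant Col1a1, Col1a2 and Dcn make up most of this sum, and Pdgfra had a higher mean in wounds of the back (15.2 to 23.0 FPKM) and cheek (19.3 to 29.6 FPKM). All 5 adipocyte markers were lower in the means of each site, with sums at 0.562, 0.535 and 0.688 of their unwounded means. The part of either in the falls of the semaphorins was not tested.

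Most calls of membrane semaphorins were rises: of 12 tested, 4 rose in the abdomen, 6 in the back and 7 in the cheek, and Sema6c alone fell, in back and cheek. Sema4d, a ligand of class B plexins that immune cells also carry, was 4.84, 3.19, 2.45 and 5.39 FPKM in unwounded abdomen and 10.8, 8.58, 9.13 and 15.3 in its wounds. In the back it was 6.15, 6.50, 6.21 and 4.69 in unwounded skin and 11.1, 9.27, 14.5 and 7.96 in its wounds, and the cheek had 6.92, 7.22, 5.38 and 8.23 in unwounded skin and 10.0, 14.7, 15.3 and 10.2 in its wounds. It rose in all 12 mice without overlap at any site, by 1.38 ± 0.17, 0.79 ± 0.17 and 0.80 ± 0.17 (adjusted p = 9.85e-05, 0.00208 and 0.00259). Sema7a, a GPI-anchored semaphorin that binds Plxnc1 and integrins, was 6.22, 5.83, 5.35 and 5.54 FPKM in unwounded abdomen and 9.69, 10.7, 10.2 and 9.77 in wounds. Back skin had 5.49, 4.60, 7.06 and 4.69 in unwounded libraries and 12.4, 11.4, 10.8 and 12.5 in its wounds, and the cheek had 6.65, 7.43, 6.33 and 9.94 in unwounded skin and 14.0, 18.5, 15.8 and 14.9 in its wounds. It also rose in all 12 mice without overlap, by 0.76 ± 0.13, 1.06 ± 0.13 and 1.03 ± 0.13 (adjusted p = 0.00112, 5.00e-05 and 8.71e-05). Sema4c, a ligand of Plxnb2, and Sema6b, a ligand of class A plexins, rose at all sites as well, by 0.41, 0.52 and 0.45 for Sema4c (adjusted p = 0.0104, 0.00170 and 0.00533) and by 0.40, 0.68 and 0.64 for Sema6b (adjusted p = 0.0349, 0.00141 and 0.00276). The abdomen call of Sema6b held in 8 of 9 other settings and in 8 of 12 fits without a mouse. Mean Sema4c went from 5.93 ± 0.472 to 8.09 ± 0.886 FPKM in the abdomen, from 5.02 ± 0.571 to 7.39 ± 0.501 in the back and from 5.59 ± 1.08 to 7.76 ± 0.557 in the cheek, and mean Sema6b from 1.93 ± 0.237 to 2.71 ± 0.286, from 2.22 ± 0.350 to 3.84 ± 0.473 and from 2.26 ± 0.291 to 3.79 ± 0.477.

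Sema4a and Sema4f rose in back and cheek, and Sema4b in the cheek. Sema4a went from 27.8 ± 4.59 to 36.6 ± 3.35 FPKM in the back, a change of 0.40 ± 0.10 (adjusted p = 0.00735), and from 26.2 ± 3.60 to 32.3 ± 3.26 in the cheek, a change of 0.30 ± 0.10 (adjusted p = 0.0381). The cheek call of Sema4a held in 7 of 9 other settings and in 9 of 12 fits without a mouse (adjusted p up to 0.196). The low Sema4f went from 0.688 ± 0.0896 to 1.32 ± 0.264 FPKM in the back (0.61, adjusted p = 0.00570) and from 0.643 ± 0.0435 to 1.11 ± 0.282 in the cheek (0.48, adjusted p = 0.0250, and 0.0503 without cheek mouse 4). Sema4b went from 11.3 ± 1.45 to 14.3 ± 0.833 FPKM in the cheek (0.34, adjusted p = 0.00684). Sema4g, Sema5a, Sema6a and Sema6d were not called at any site, with changes between -0.23 and 0.26. Markers of immune cells were both higher and lower in these wounds: the summed level of 6 macrophage markers in wounds was 1.50, 1.86 and 1.75 times that of unwounded abdomen, back and cheek (485 to 608 against 701 to 955 FPKM, 433 to 765 against 984 to 1177, and 375 to 672 against 834 to 999.5), and that of 5 neutrophil markers 46.2, 80.6 and 97.7 times (8.18 to 37.6 against 344 to 2388, 9.15 to 20.9 against 1039 to 1537, and 8.39 to 12.5 against 553 to 1374). The 4 T cell markers summed to 0.618, 0.594 and 0.601 times their unwounded means. Cd3e and Cd3g had lower means in the wounds of each site, and Cd3d a higher one in the back only. The low Cd8a had a higher mean in wounds of abdomen, back and cheek (0.125 to 0.66, 0.1275 to 0.8425 and 0.1475 to 0.6625 FPKM). The 6 keratinocyte markers summed to 1.81, 1.84 and 2.24 times their unwounded means (6533 to 8751 against 9892 to 17814, 6095 to 9409 against 13023 to 14855, and 5087 to 6668 against 9769 to 15879). By their means, all 5 neutrophil markers were higher in wounds at each site, the macrophage markers in 5 of 6, 6 of 6 and 6 of 6, and the keratinocyte markers in 4, 4 and 5 of 6, with Trp63 lower at all sites. None of these markers was at 0 in a group, and their part in the rises was not tested.

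Sema6c was 8.31, 12.0, 10.4 and 8.84 FPKM in unwounded back against 3.71, 4.12, 3.28 and 4.65 in its wounds and 12.9, 14.2, 7.80 and 9.69 in unwounded cheek against 6.02, 4.18, 4.38 and 5.16 in its wounds. The groups did not overlap, and the changes were -1.22 ± 0.27 (adjusted p = 0.00308) in the back and -1.08 ± 0.27 (adjusted p = 0.00824) in the cheek. In the abdomen it was 9.20, 2.70, 2.76 and 8.64 FPKM in unwounded skin and 2.76, 3.18, 3.43 and 4.23 in wounds, a change of -0.51 ± 0.27 (adjusted p = 0.158), with 2 unwounded libraries high and 2 low. The summed level of 6 skeletal muscle markers had the same order over the 4 unwounded abdomen libraries, with 13667, 444, 2367 and 12684 FPKM in unwounded abdomen of mice 1 to 4, 12586 to 19697 in unwounded back, 9924 to 20087 in unwounded cheek and 1579 to 4787, 2863 to 4125 and 4311 to 6056 in abdomen, back and cheek wounds. None of the 6 was at 0, and the part of muscle in the Sema6c values was not tested.

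Of the plexins, the receptors of the semaphorins, Plxnd1 and Plxnb2 rose at all sites, Plxnc1 rose in back and cheek, and Plxna3 fell in abdomen and back. Plxnd1, known for its role in endothelial cells, was 12.9, 13.9, 10.4 and 16.1 FPKM in unwounded abdomen and 19.1, 25.1, 17.7 and 26.5 in its wounds. The back libraries held 14.6, 16.0, 19.0 and 10.7 in unwounded skin and 29.8, 30.9, 26.0 and 23.8 in its wounds, and the cheek had 15.3, 17.3, 14.6 and 10.3 in unwounded skin and 27.2, 36.1, 27.1 and 25.4 in its wounds. It rose in all 12 mice without overlap at any site, by 0.71 ± 0.11, 0.87 ± 0.11 and 1.00 ± 0.11 (adjusted p = 4.73e-04, 4.58e-05 and 2.14e-05). Plxnb2 was 36.7, 44.3, 32.5 and 39.1 FPKM in unwounded abdomen and 50.9, 50.1, 40.2 and 48.1 in wounds, which overlapped. In the back it was 35.6, 32.9, 34.5 and 26.7 in unwounded skin and 52.7, 53.0, 53.7 and 43.2 in its wounds, and the cheek had 37.3, 33.6, 40.7 and 46.5 in unwounded skin and 50.5, 52.5, 52.6 and 51.1 in its wounds, without overlap at either site. It rose in all 12 mice, by 0.31 ± 0.08, 0.64 ± 0.08 and 0.39 ± 0.08 (adjusted p = 0.0107, 5.50e-05 and 0.00233). Plxnc1, the receptor of Sema7a, went from 1.60 ± 0.272 to 2.65 ± 0.218 FPKM in the back (0.59, adjusted p = 0.00324) and from 1.67 ± 0.369 to 3.44 ± 0.372 in the cheek (0.87, adjusted p = 3.57e-04), and its abdominal change of 0.32 did not pass (adjusted p = 0.0799). Plxna3 fell from 3.19 ± 0.472 to 2.47 ± 0.287 FPKM in the abdomen (-0.31, adjusted p = 0.0365) and from 2.52 ± 0.210 to 1.87 ± 0.130 in the back (-0.34, adjusted p = 0.0164), with a change of -0.25 in the cheek (adjusted p = 0.0737). The abdomen call of Plxna3 held in 8 of 9 other settings and in 9 of 12 fits without a mouse. Plxna1, Plxna2, Plxna4 and Plxnb1 were not called at any site, with changes of 0.01, 0.26 and 0.17 for Plxna1 (15.7 FPKM on average), and of -0.31, -0.29 and -0.18 for Plxna2. The ligand and receptor of the pair Sema7a and Plxnc1 thus both rose in back and cheek wounds, whereas Sema3e and its receptor Plxnd1 moved in opposite directions in the abdomen.

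The neuropilins, co-receptors of class 3 semaphorins that also bind vascular endothelial growth factors, rose in the back and, for Nrp1, in the cheek. Nrp1 was 9.55, 12.8, 12.7 and 12.8 FPKM in unwounded back and 17.1, 15.5, 13.8 and 14.1 in its wounds, a change of 0.33 ± 0.12 (adjusted p = 0.0394), and 15.6, 18.4, 12.3 and 12.2 in unwounded cheek and 21.9, 24.2, 17.1 and 16.8 in its wounds, a change of 0.44 ± 0.12 (adjusted p = 0.0131). The back call held in 4 of 9 other settings (adjusted p up to 0.148) and in 9 of 12 fits without a mouse. The abdomen gave 12.8 ± 2.45 and 13.2 ± 2.90 FPKM and a change of 0.04 (95% CI -0.23 to 0.30). Nrp2 went from 7.39 ± 2.05 to 11.0 ± 1.34 FPKM in the back (0.58, adjusted p = 0.00773), with changes of 0.24 in the abdomen and 0.11 in the cheek that did not pass. The 8 markers of blood endothelium, none at 0, had a higher sum in wounds, with 114 to 132 FPKM in unwounded abdomen against 156 to 164 in its wounds, 107 to 141 against 172 to 183 in the back and 101 to 159 against 154 to 183 in the cheek. In the means, 6 of the 8 were higher in the wounds of each site and Cldn5 and Tek were lower, and their part in the changes of Plxnd1 and the neuropilins was not tested.

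**Figure D3:**
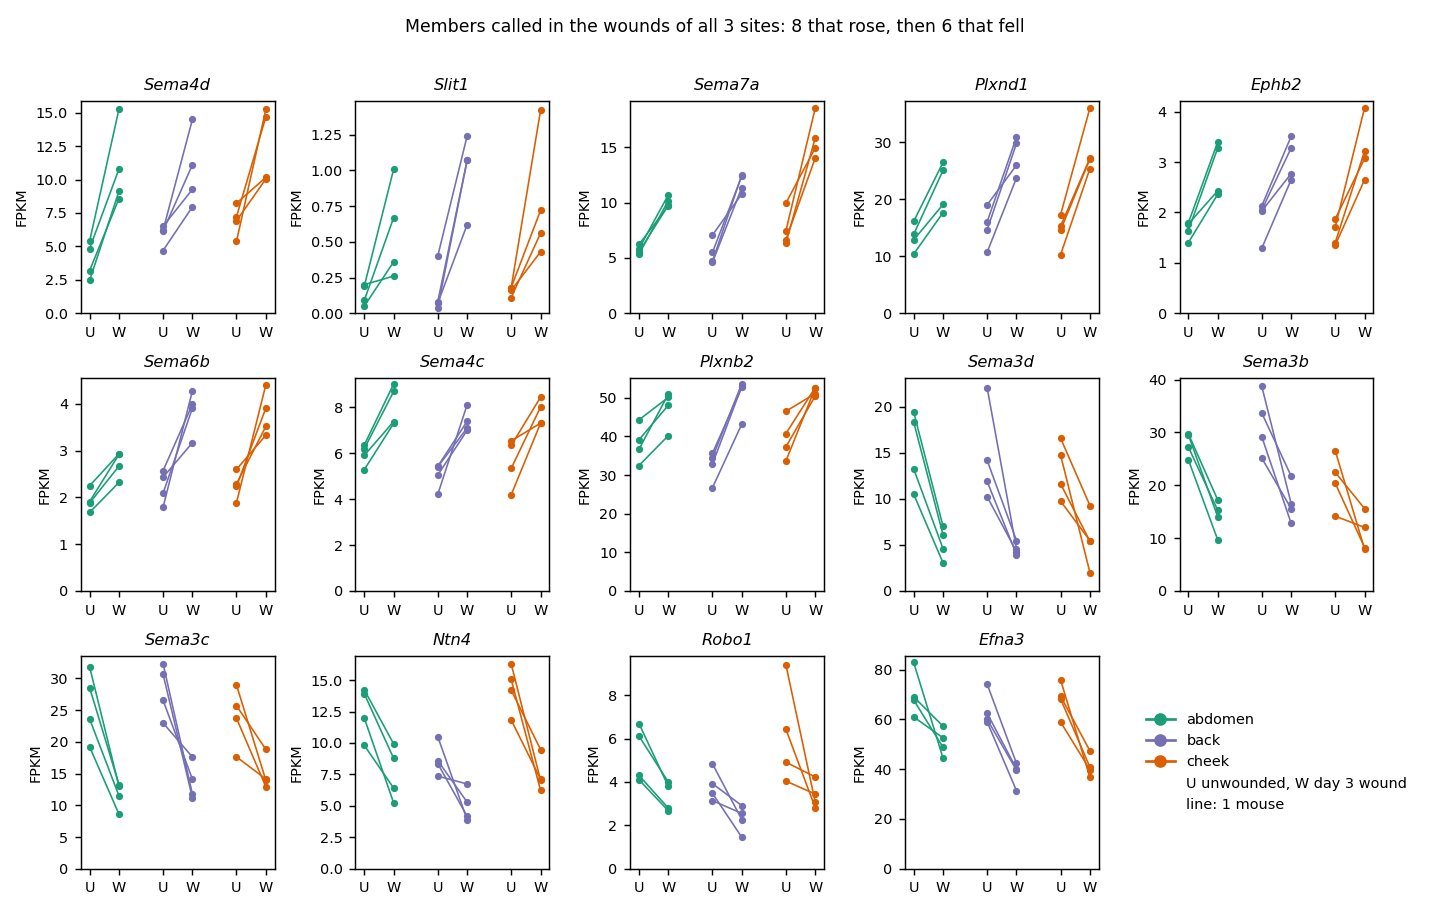
FPKM (vertical axes, from 0) of the 14 members called in the wounds of all 3 sites, in unwounded skin (U) and day 3 wounds (W), with a line for each mouse. All 12 lines rise for each of the first 8 genes and all 12 fall for each of the last 6, and the unwounded cheek library of mouse 4 is the highest of the unwounded cheek libraries for Robo1 (9.40 FPKM) and the lowest for Sema3d (9.76 FPKM).

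The Slits, secreted repellents that bind Robo receptors, differed among themselves. Slit3, the most abundant, was not called at any site (-0.18, 0.18 and 0.06, adjusted p = 0.311, 0.292 and 0.754). Slit1 was near the lower limit of the table, at 0.19, 0.05, 0.09 and 0.20 FPKM in unwounded abdomen and 1.01, 0.36, 0.67 and 0.26 in wounds. Back skin had 0.08, 0.40, 0.07 and 0.04 in unwounded libraries and 1.07, 1.24, 0.62 and 1.07 in its wounds, and the cheek had 0.16, 0.18, 0.18 and 0.11 in unwounded skin and 0.43, 1.42, 0.72 and 0.56 in its wounds. It rose in all 12 mice, by 0.72 ± 0.20, 1.23 ± 0.20 and 0.91 ± 0.20 (adjusted p = 0.0141, 3.27e-04 and 0.00331), and its groups did not overlap. Slit2, the middle member in level, was 2.45, 2.15, 2.32 and 2.21 FPKM in unwounded cheek and 3.91, 4.42, 3.68 and 3.97 in cheek wounds, with every wound library above every unwounded library, a change of 0.69 ± 0.11 (95% CI 0.45 to 0.93, adjusted p = 5.17e-04). The abdomen gave 2.35, 2.47, 1.68 and 1.65 FPKM in unwounded skin and 2.75, 2.16, 1.81 and 1.57 in wounds, a change of 0.01 ± 0.11 (95% CI -0.23 to 0.26, adjusted p = 0.931). The back gave 2.19, 1.42, 2.57 and 2.70 in unwounded skin and 2.29, 1.98, 2.2 and 2.61 in wounds, a change of 0.05 ± 0.11 (95% CI -0.19 to 0.29, adjusted p = 0.743), and at both sites the groups overlapped. The cheek rise of Slit2 passed in all 9 other settings and in all 12 fits that left out a mouse.

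Of the Robo receptors, Robo1 fell at all sites. It was 4.10, 6.11, 4.30 and 6.69 FPKM in unwounded abdomen and 2.67, 3.99, 2.79 and 3.79 in wounds. The back libraries held 3.92, 3.14, 3.48 and 4.84 in unwounded skin and 2.91, 2.55, 1.45 and 2.26 in its wounds, and the cheek had 4.91, 4.04, 6.43 and 9.40 in unwounded skin and 4.23, 3.44, 2.81 and 3.06 in its wounds. All 12 mice fell, with changes of -0.60 ± 0.20, -0.65 ± 0.20 and -0.74 ± 0.20 (adjusted p = 0.0342, 0.0166 and 0.0116), and without cheek mouse 4, the highest library, the cheek change was -0.49 with an adjusted p of 0.0606. The abdomen call of Robo1 held in all 9 other settings and in 8 of 12 fits without a mouse (adjusted p up to 0.113). Robo2 fell in the abdomen, from 2.05 ± 0.420 to 1.59 ± 0.397 FPKM (-0.29, adjusted p = 0.0384), and changed by 0.18 in the back and -0.02 in the cheek without passing. Its abdomen call held in 7 of 9 other settings (adjusted p up to 0.144) and in 7 of 12 fits without a mouse. Robo4, the Robo receptor of endothelial cells, rose in the back from 3.15 ± 0.473 to 4.32 ± 0.271 FPKM (0.41, adjusted p = 0.0141) and in the cheek from 3.51 ± 0.861 to 4.45 ± 0.257 (0.33, adjusted p = 0.0481, in 3 of 4 mice), where the call held in 4 of 9 other settings and 1 of 12 fits without a mouse, with an adjusted p of 0.205 without mouse 4.

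Both netrins that were tested fell in abdomen and back wounds, and Ntn4 also in cheek wounds. Ntn4, a netrin of basement membranes, was 12.0, 13.9, 9.81 and 14.2 FPKM in unwounded abdomen and 5.23, 8.77, 6.41 and 9.92 in wounds. In the back it was 7.37, 8.60, 10.5 and 8.36 in unwounded skin and 6.74, 5.30, 3.91 and 4.18 in its wounds, and the cheek had 14.2, 15.1, 11.8 and 16.3 in unwounded skin and 9.48, 6.24, 7.12 and 7.03 in its wounds. It fell in all 12 mice, with changes of -0.71 ± 0.17, -0.75 ± 0.17 and -0.90 ± 0.17 (adjusted p = 0.00794, 0.00345 and 0.00151), with a slight overlap of groups in the abdomen only. Ntn1, the prototype of the family, was 10.8, 15.2, 10.7 and 11.7 FPKM in unwounded abdomen and 6.32, 9.50, 6.76 and 8.96 in wounds, a change of -0.59 ± 0.10 (adjusted p = 7.86e-04). Back skin had 10.8, 11.1, 14.0 and 11.2 in unwounded libraries and 6.50, 6.45, 6.45 and 6.88 in wounds, a change of -0.79 ± 0.10 (adjusted p = 4.64e-05). In the cheek it was 12.4, 14.9, 12.9 and 11.3 in unwounded skin and 11.3, 10.9, 9.80 and 11.4 in wounds, which overlapped, a change of -0.23 ± 0.10 (adjusted p = 0.0754) that did not pass. Of the receptors, Neo1, which binds netrins and repulsive guidance molecules, fell in the back from 12.8 ± 1.07 to 9.81 ± 0.762 FPKM (-0.37, adjusted p = 0.0130) and in the cheek from 15.5 ± 3.75 to 11.2 ± 0.176 (-0.43, adjusted p = 0.00752, and -0.27 with an adjusted p of 0.0308 without mouse 4). Unc5a and Unc5b, receptors for netrin repulsion, were not called at any site, with changes of 0.16, -0.06 and -0.09 for Unc5a and of -0.14, 0.02 and -0.40 for Unc5b, which was high in unwounded cheek mouse 4.

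Among the ephrins, ligands of the Eph receptors, 2 fell in the abdomen, 2 in the back and 5 in the cheek, and none rose. Efna3, a GPI-anchored ligand of EphA receptors, was 82.8, 69.0, 67.8 and 61.0 FPKM in unwounded abdomen and 44.4, 57.3, 48.8 and 52.6 in wounds. The back libraries held 74.2, 62.5, 59.0 and 60.0 in unwounded skin and 42.3, 40.1, 31.4 and 39.6 in its wounds, and the cheek had 69.3, 59.0, 75.9 and 68.2 in unwounded skin and 47.3, 39.8, 36.7 and 40.8 in its wounds. It fell in all 12 mice without overlap, with changes of -0.46 ± 0.11, -0.73 ± 0.11 and -0.72 ± 0.11 (adjusted p = 0.00845, 2.49e-04 and 4.12e-04). Its neighbours Efna1 and Efna4 were called in the cheek, Efna1 from 44.2 ± 4.65 to 37.3 ± 2.29 FPKM (-0.24, adjusted p = 0.0327, and 0.0901 without mouse 4) and Efna4 from 10.7 ± 3.09 to 7.02 ± 1.202 (-0.55, adjusted p = 0.00683). Efnb2, the transmembrane ephrin of arterial endothelium, fell in the abdomen from 33.0, 39.8, 33.4 and 36.2 to 24.2, 30.1, 24.7 and 26.4 FPKM (-0.43 ± 0.08, adjusted p = 0.00241) and in the cheek from 28.3, 28.1, 35.0 and 36.7 to 24.8, 24.6, 24.5 and 23.9 (-0.37 ± 0.08, adjusted p = 0.00415). In the back Efnb2 was 23.9, 23.2, 22.4 and 23.1 in unwounded skin and 24.8, 21.8, 19.4 and 18.6 in wounds, a change of -0.14 (95% CI -0.32 to 0.04). The low Efnb3 fell in the back from 0.94, 0.97, 1.28 and 1.31 to 0.35, 0.33, 0.26 and 0.48 FPKM (-0.92 ± 0.17, adjusted p = 9.90e-04) and in the cheek from 1.11, 0.85, 1.26 and 1.13 to 0.88, 0.37, 0.39 and 0.37 (-0.69 ± 0.17, adjusted p = 0.00836), with 1.17, 1.14, 1.2 and 0.92 in unwounded abdomen and 0.44, 1.09, 1.46 and 0.84 in its wounds. Efna2, Efna5 and Efnb1 were not called at any site, with changes of 0.13, -0.08 and -0.30 for Efna2, -0.26, 0.02 and -0.15 for Efna5 and 0.09, 0.08 and -0.24 for Efnb1.

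Of the 9 Eph receptors tested, Ephb2, a receptor of ephrin-B ligands, was the only one called. It was 1.64, 1.79, 1.40 and 1.77 FPKM in unwounded abdomen and 3.28, 3.40, 2.36 and 2.43 in wounds. In the back it was 2.13, 2.05, 2.03 and 1.29 in unwounded skin and 3.51, 3.28, 2.77 and 2.65 in its wounds, and the cheek had 1.35, 1.40, 1.87 and 1.71 in unwounded skin and 2.65, 3.22, 3.07 and 4.08 in its wounds. It rose in all 12 mice without overlap, by 0.64 ± 0.12, 0.59 ± 0.12 and 0.84 ± 0.12 (adjusted p = 0.00167, 0.00136 and 1.61e-04). Ephb4, the venous partner of Efnb2, changed by 0.04, 0.07 and 0.08, with 95% CIs of -0.12 to 0.19, -0.09 to 0.23 and -0.08 to 0.24. The kinase-dead Ephb6 changed by -0.01, 0.02 and -0.18 and Epha1 by -0.20, -0.17 and -0.23. Epha2, a receptor of epithelial cells (9.71 FPKM on average), changed by 0.13, 0.12 and 0.20 and the low Epha3 (0.653 FPKM) by 0.14, 0.20 and 0.31. The widest intervals of all members were those of Ephb1, for example -0.58 in the cheek (95% CI -1.21 to 0.05), where unwounded mouse 4 stood apart.

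The difference between sites in the wound effect was then tested itself. By a moderated F test, 0 of the 57 members differed at an adjusted p of 0.05 (0.0208% of all genes did). At an unadjusted p under 0.05 were 8 of the 57 members, beside a similar share of all genes (1867 of 14423). The smallest adjusted p of this limma test was that of Slit2 (adjusted p = 0.210), followed by those of Ntn1 (adjusted p = 0.233) and Sema3a (adjusted p = 0.251). The wound effect on Slit2 in the cheek exceeded that in the abdomen by 0.68 (95% CI 0.34 to 1.02, adjusted p = 0.276) and that in the back by 0.64 (95% CI 0.30 to 0.98, adjusted p = 0.365). The fall of Ntn1 was smaller in the cheek than in the back by 0.56 (95% CI 0.26 to 0.85, adjusted p = 0.365). Over the other settings the adjusted p of the F test for Slit2 lay between 0.177 and 0.36, and over the fits that left out a mouse between 0.0549 (without abdomen mouse 1) and 0.421. By this test, a wound effect that differs between sites was not shown for any member.

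Sites were next compared within the 12 unwounded libraries, by limma without pairing, to ask how guidance genes vary with the origin of the skin. Of the 55 members tested (Ephb1 and Slit1 did not pass the filter there), 1 was called between back and abdomen (2.67% of all genes), 0 between cheek and abdomen (2.57% of all genes) and 1 between cheek and back (1.05% of all genes). Between cheek and abdomen, 10 of the 55 members had an unadjusted p under 0.05, beside a similar share of all genes (2650 of 13956). The exact permutation test of 4 libraries against 4 cannot go below 0.0286. Efnb2 was lower in the back, with 23.9, 23.2, 22.4 and 23.1 FPKM, than in the abdomen, with 33.0, 39.8, 33.4 and 36.2 and no overlap, a difference of -0.61 ± 0.11 (adjusted p = 0.0107, exact permutation p = 0.0286), and the cheek gave 28.3, 28.1, 35.0 and 36.7. Ntn4 was higher in the cheek, with 14.2, 15.1, 11.8 and 16.3 FPKM, than in the back, with 7.37, 8.60, 10.5 and 8.36 and no overlap, a difference of 0.69 ± 0.14 (adjusted p = 0.0369, exact permutation p = 0.0286), and this was 0.63 without cheek mouse 4 (adjusted p = 0.0939). All genes tested had a median of -0.12 between back and abdomen. Between cheek and back it was 0.14. Both shifts had the direction of the called difference and were smaller than it. The largest differences that did not pass were those of Sema6c, at 1.04 between cheek and abdomen (adjusted p = 0.155) and 0.90 between back and abdomen (adjusted p = 0.189), and of Nrp2, at 0.84 between cheek and back (adjusted p = 0.109).

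The unwounded cheek library of mouse 4 was the highest of the 12 unwounded libraries for 22 of the 57 members (38.6%), beside 21.7% of all genes tested, and the lowest for 6. Ephb1 was 0.29, 0.73, 0.69 and 4.28 FPKM in unwounded cheek of mice 1 to 4, and the other 8 unwounded libraries lay between 0.23 and 0.40. Unc5b, which in vessels acts as a repulsive netrin receptor, was 7.45, 6.88, 9.08 and 19.9 FPKM in the cheek, and Epha4, which binds ephrins of both classes, 3.94, 4.39, 4.78 and 10.5. Ephb3 was 8.34, 8.89, 11.0 and 20.8 FPKM, Efnb1 16.4, 17.8, 24.8 and 37.7 and Epha1 24.0, 21.2, 28.9 and 51.5. The ratio of mouse 4 to the mean of the other 11 unwounded libraries was 11.4 for Ephb1, 2.96 for Unc5b, 2.37 for Epha4, 2.07 for Ephb3 and 1.94 for Efnb1. Beside the growing hair genes, the summed level of 5 proliferation markers, none at 0, was 82.6 FPKM in this library and 21.3 to 56.6 in the other unwounded cheek libraries. A single library gives no replicate check, and the part of the hair cycle in these levels was not tested.

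**Figure D4:**
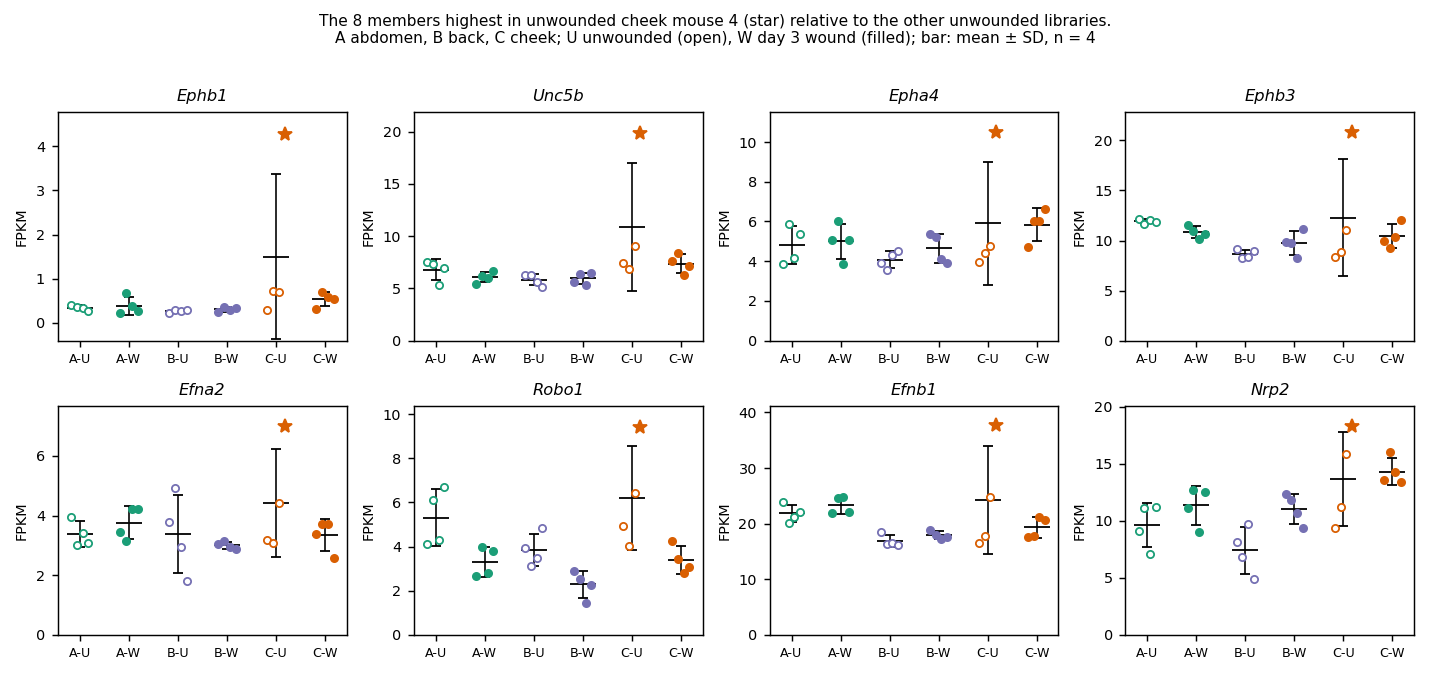
FPKM (vertical axes) of the 8 members with the highest ratio of unwounded cheek mouse 4 (star) to the mean of the other unwounded libraries, a choice made from these values, in each library of the 6 groups. Points are libraries and bars the mean ± SD of 4 mice. The star is the highest point of all 24 libraries in every panel (4.28 FPKM for Ephb1, 19.9 for Unc5b, 10.5 for Epha4), and the wound library of the same mouse lies below it throughout.

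Wounds of the 3 sites were compared last, within the 12 wound libraries. Between back and abdomen wounds, 0 members were higher and 1 lower in the back (0.506% and 0.763% of all genes). Between cheek and abdomen wounds, 6 were higher and 2 lower in the cheek (7.52% and 3.32% of all genes), and between cheek and back wounds 3 were higher and 0 lower (1.90% and 0.599% of all genes). These comparisons share the cheek libraries. The median of the members was 0.19 for cheek against abdomen wounds and 0.21 for cheek against back wounds, beside 0.07 and 0.09 for all genes.

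Slit2, Sema7a and Ntn1 were higher in cheek wounds than at both other sites. Slit2, at 3.91, 4.42, 3.68 and 3.97 FPKM in cheek wounds, 2.75, 2.16, 1.81 and 1.57 in abdomen wounds and 2.29, 1.98, 2.2 and 2.61 in back wounds, was 0.82 ± 0.14 above the abdomen (95% CI 0.53 to 1.12, adjusted p = 0.00723) and 0.70 ± 0.14 above the back (95% CI 0.41 to 1.00, adjusted p = 0.0312), without overlap and with an exact permutation p of 0.0286 for each. In unwounded skin the same differences were 0.15 (95% CI -0.23 to 0.53) and 0.06 (95% CI -0.32 to 0.44). Sema7a, at 14.0, 18.5, 15.8 and 14.9 FPKM in cheek wounds, 9.69, 10.7, 10.2 and 9.77 in abdomen wounds and 12.4, 11.4, 10.8 and 12.5 in back wounds, was 0.62 ± 0.09 above the abdomen (adjusted p = 0.00338) and 0.41 ± 0.09 above the back (adjusted p = 0.0403). Unwounded cheek had Sema7a differences in the same direction that did not pass. They were 0.36 against the abdomen (95% CI 0.02 to 0.69, adjusted p = 0.233) and 0.44 against the back (95% CI 0.11 to 0.77, adjusted p = 0.152). Ntn1, at 11.3, 10.9, 9.80 and 11.4 FPKM in cheek wounds, 6.32, 9.50, 6.76 and 8.96 in abdomen wounds and 6.50, 6.45, 6.45 and 6.88 in back wounds, was 0.45 ± 0.12 above the abdomen (adjusted p = 0.0328) and 0.68 ± 0.12 above the back (adjusted p = 0.0194). Each of the 3 genes had all 4 cheek wounds above all 8 other wounds. In the same wounds the summed fibroblast markers were 3940.0 to 7382 FPKM in the cheek, 6363 to 9216 in the abdomen and 6239.9 to 8857 in the back, the neutrophil markers 553 to 1374, 344 to 2388 and 1039 to 1537, and the muscle markers 4311 to 6056, 1579 to 4787 and 2863 to 4125, and their part in the differences was not tested. The calls against the back were the less stable: all 3 were lost without back mouse 3, back mouse 4 or cheek mouse 1, 2 or 4. Without cheek mouse 4, for example, the differences were 0.70, 0.43 and 0.66 for Slit2, Sema7a and Ntn1 (adjusted p = 0.0710, 0.0722 and 0.0604). Of 9 other settings, the calls against the back held in 6 for Slit2, 5 for Sema7a and 9 for Ntn1. Against the abdomen, the calls of Slit2 and Sema7a held in all 12 fits that left out a mouse and that of Ntn1 in 7.

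Nrp1, Sema3e and Sema6b were higher in cheek than in abdomen wounds, and Efnb1 and Ephb6 lower. Nrp1 was 21.9, 24.2, 17.1 and 16.8 FPKM in cheek and 12.8, 16.6, 9.60 and 13.9 in abdomen wounds, a difference of 0.59 ± 0.16 (adjusted p = 0.0377). Sema3e was 3.05, 2.34, 1.90 and 2.39 in cheek and 1.29, 1.71, 1.11 and 1.51 in abdomen wounds, a difference of 0.61 ± 0.16 (adjusted p = 0.0346). Sema6b was 3.52, 3.33, 4.41 and 3.91 in cheek and 2.92, 2.67, 2.93 and 2.32 in abdomen wounds, a difference of 0.42 ± 0.12 (adjusted p = 0.0400). Ephb6 was 30.4, 32.6, 25.5 and 31.2 FPKM in cheek and 34.1, 40.3, 42.9 and 35.5 in abdomen wounds, a difference of -0.35 ± 0.10 (adjusted p = 0.0391). Efnb1, a ligand encoded on the X chromosome, was 17.5, 17.8, 21.2 and 20.7 FPKM in cheek wounds, 21.8, 24.6, 24.8 and 22.1 in abdomen wounds and 18.9, 18.03, 17.2 and 17.5 in back wounds, and was lower than in the abdomen by both tests, at -0.27 ± 0.08 (adjusted p = 0.0491) for the cheek and -0.37 ± 0.08 (adjusted p = 0.0445) for the back. None of these pairs of wound groups overlapped. In unwounded skin Efnb1 differed from the abdomen by -0.36 in the back, without overlap (adjusted p = 0.307), and by 0.07 in the cheek (adjusted p = 0.885). Without cheek mouse 4, 3 members were called between cheek and abdomen wounds (Slit2, Sema7a and Nrp1), and the call of Efnb1 against the abdomen held in 1 of 12 fits without a mouse for the cheek and in 4 of 12 for the back. Of the 9 other settings, the Efnb1 call held in 5 for the cheek (adjusted p up to 0.287) and in 3 for the back (adjusted p up to 0.304). Against the abdomen the calls of Sema3e, Nrp1, Ephb6 and Sema6b held in 7, 6, 5 and 3 of the 12 fits and in 8, 9, 8 and 6 of the 9 other settings.

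**Figure D5:**
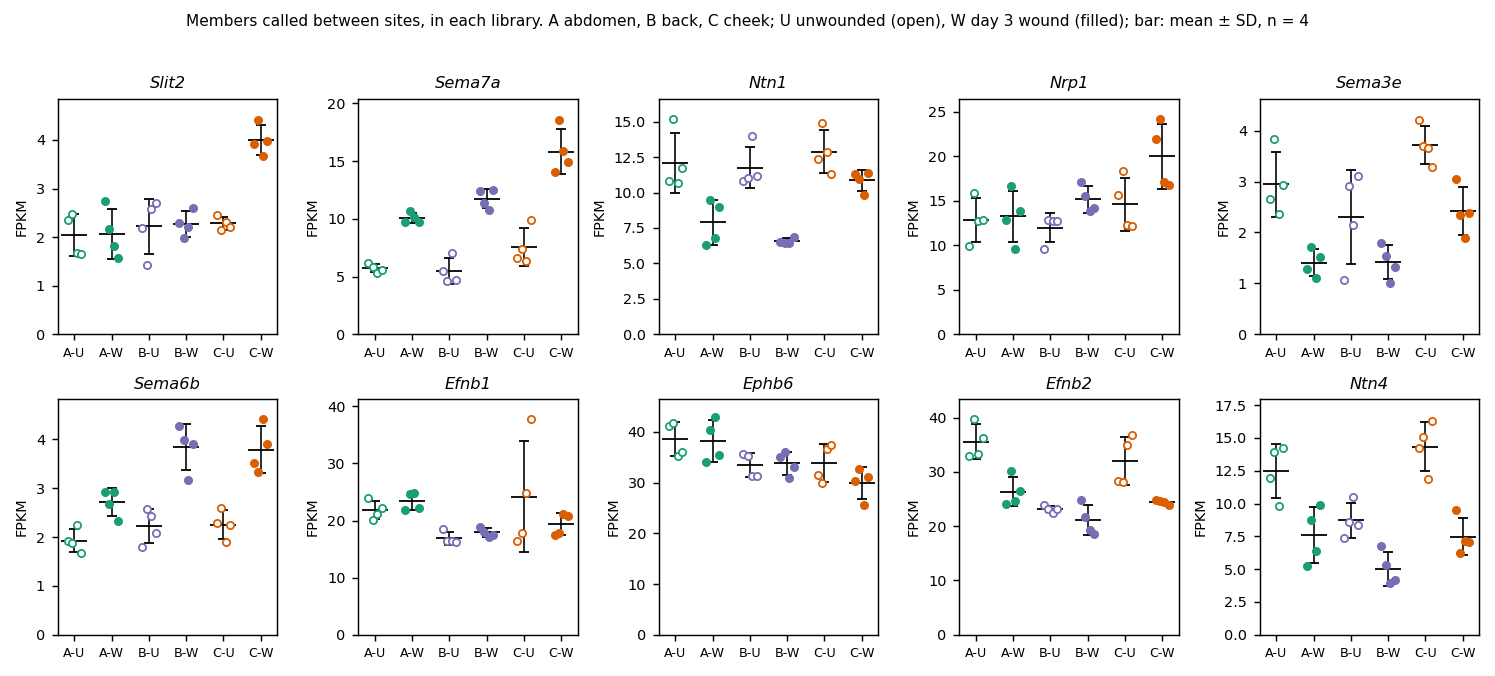
FPKM (vertical axes, from 0) in each of the 24 libraries, by site and state, of the 10 members called between sites in unwounded skin or in wounds. Points are libraries and bars the mean ± SD of 4 mice. The 4 cheek wounds of Slit2 (3.68 to 4.42 FPKM) and of Sema7a (14.0 to 18.5 FPKM) lie above all other libraries, and those of Ntn1 (9.80 to 11.4 FPKM) lie above the other wounds.

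The proteins that act next to these receptors were examined as a list of 46 genes, of which 44 were tested. In the abdomen 13 rose and 5 fell, in the back 17 rose and 6 fell, and in the cheek 14 rose and 3 fell, beside 16.9% and 16.0%, 28.0% and 17.9%, and 19.7% and 16.9% of all genes. Their medians were 0.07, 0.19 and 0.13 (all genes -0.01, 0.07 and 0.01). The 2 largest rises were those of Enah, an actin regulator, and Cfl1, the actin-severing cofilin, in the abdomen (1.25 and 0.93), of Enah and Rnd1, which binds plexins, in the back (1.45 and 1.38), and of Enah and Fes, a kinase recruited by plexins, in the cheek (1.46 and 0.98). The 2 largest falls were those of Rgmb, a ligand of Neo1, and the kinase Fyn in the abdomen (-0.50 and -0.41), of Rgmb and Mical3 in the back (-0.74 and -0.52), and of Flrt1, a partner of Unc5 receptors, and Rgmb in the cheek (-0.51 and -0.39). Rgmb and Neo1 thus both fell in back and cheek wounds.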

How the data were processed

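Total RNA of whole skin was sequenced as 100-base paired ends on a BGISEQ-500 instrument from 24 libraries of 12 mice. Reads were aligned by the authors with HISAT2 to the mouse genome (GRCm38/mm10) and quantified with Bowtie2 2.2.5 and RSEM 1.2.12, and the deposited values are FPKM to 2 decimals. A deposited table of the authors' own comparisons holds log2 fold changes and adjusted p-values and was not used. FPKM already divide by transcript length and library total, so a few abundant genes can shift all others, and the submitters' notes also name DESeq2, which was not applied here because no counts were used.

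A gene entered a fit when 4 or more of its libraries reached 0.5 FPKM. log2(FPKM + 0.5) was taken, and limma 3.58.1 (R 4.3.3, trend and robust moderation, statmod 1.5.0) was fitted to all kept genes with Benjamini-Hochberg adjustment. Wound effects came from 1 fit of 24 libraries with 12 mouse terms, differences between sites in these effects from its F test and contrasts, and site comparisons from the 12 unwounded or the 12 wound libraries. The mouse pairs the 2 states: deviations from group means correlated at 0.322, 0.348 and 0.281 on average between libraries of the same mouse (lowest -0.030) and at -0.108, -0.116 and -0.0958 between different mice in abdomen, back and cheek. Exact tests were 2-sided. The script was tested on simulated data with 200 genes changed in the wounds of all sites and 200 other genes changed in cheek wounds only. Alternatives were pseudocounts of 0.1 and 1 FPKM, a filter of 1 FPKM or none, median-ratio scaling, quantile normalization, no moderation options, other blocks or groupings and each mouse left out.

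Members were taken by symbol. Values are given for members called in a wound effect (at most the 25 with the largest change per site) or between sites, for Slit2 and for the most abundant member of each family, and of the partner proteins for the 2 largest rises and falls. Members and lists were chosen with earlier results of these data known. Mice are separate animals, with 4 per site. Promoters and gene positions are from RefSeq (GRCm38.p6), and 1 member, Ntn5, shares over 20% of its exon bases with another gene. Depth could only be compared roughly, from the steps of low values in 85 genes, and differed by 0.960 to 1.058 times between libraries.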

Additional observations from a re-analysis of the deposited data

Results flagged for a closer look

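Groups of 4 libraries in which the highest or lowest library stood far from the other 3, relative to the range of the group, were sought for the 57 tested members. This held in 21 of 342 groups (6.14%), where chance gives about 1 in 20.

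In unwounded cheek, mouse 4, whose library had the high hair keratins, stood apart for 3 members: Epha4 was 10.49 FPKM in mouse 4 and 3.94 to 4.78 in the others. Ephb1 was 4.28 FPKM in mouse 4 and 0.29 to 0.73 in the others and Unc5b was 19.9 FPKM in mouse 4 and 6.88 to 9.08 in the others. In cheek wounds, Efnb3 was 0.88 FPKM in mouse 1 and 0.37 to 0.39 in the others and Plxnd1 was 36.06 FPKM in mouse 2 and 25.41 to 27.23 in the others. Unwounded back held 8 such groups: Efnb1 was 18.49 FPKM in mouse 1 and 16.17 to 16.45 in the others. Ephb2 was 1.29 FPKM in mouse 4 and 2.03 to 2.13 in the others. Nrp1 was 9.55 FPKM in mouse 1 and 12.74 to 12.8 in the others. Ntn1 was 13.96 FPKM in mouse 3 and 10.84 to 11.19 in the others. Robo2 was 1.13 FPKM in mouse 3 and 1.49 to 1.56 in the others. Sema3a was 2.26 FPKM in mouse 4 and 1.27 to 1.42 in the others. Sema3g was 3.94 FPKM in mouse 2 and 2.21 to 2.29 in the others and Slit1 was 0.4 FPKM in mouse 2 and 0.04 to 0.08 in the others. In back wounds, mouse 4 stood apart 4 times: Ntn1 was 6.88 FPKM in mouse 4 and 6.45 to 6.5 in the others. Plxnb1 was 3.64 FPKM in mouse 4 and 4.82 to 4.92 in the others. Plxnb2 was 43.19 FPKM in mouse 4 and 52.69 to 53.68 in the others and Unc5a was 0.83 FPKM in mouse 4 and 0.54 to 0.58 in the others. In unwounded abdomen, Efna4 was 10.48 FPKM in mouse 1 and 9.26 to 9.41 in the others. Robo4 was 3.76 FPKM in mouse 3 and 2.82 to 2.85 in the others and Sema4b was 18.65 FPKM in mouse 3 and 13.56 to 13.7 in the others. In abdomen wounds, Efna1 was 56.54 FPKM in mouse 3 and 41.09 to 43.08 in the others.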

How the results depend on the processing

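Depth is unknown, so counting error is not separated from the spread between 4 mice. Of 86 called results of single members, 0 changed direction, and 51 of 772 fits under other settings and 137 of 1032 fits without a mouse missed the threshold. The cause of the changes that follow was not tested. At an adjusted p under 0.001, 4 members were called in the abdomen, 9 in the back and 6 in the cheek. Without a filter, unwounded cheek against back gave 2 members and back against abdomen wounds 0. Median-ratio scaling and quantile normalization each gave 0 for unwounded cheek against back, 0 for back against abdomen wounds and 1 for cheek against back wounds. Without trend and robust moderation, back against abdomen wounds gave 0. With all 24 libraries as 6 groups, unwounded back against abdomen gave 2, cheek against abdomen 4 and cheek against back 6, and back against abdomen wounds 0.

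Each mouse had 1 site, so replicate numbers do not pair sites (same-number correlations averaged -0.174 to 0.0179). With the replicate number as a block, unwounded cheek against back gave 0, back against abdomen wounds 0, cheek against abdomen wounds 5 and cheek against back wounds 1. Wound effects without the replicate block gave 18, 24 and 24 members in abdomen, back and cheek.

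Leaving out 1 mouse gave 1 to 2 members for unwounded back against abdomen, 0 to 1 for cheek against abdomen and 0 to 2 for cheek against back. In wounds it gave 0 to 3 for back against abdomen, 2 to 9 for cheek against abdomen (2 without abdomen mouse 3, cheek mouse 1 or cheek mouse 2) and 0 to 7 for cheek against back (7 without abdomen mouse 3). The wound effects gave 15 to 21, 22 to 27 and 23 to 28 members, and the F test 0 throughout.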

Other observations

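Cells that accompany nerves and other skin cells were followed by their markers, without a test. The summed level of 7 Schwann cell markers was 68.5 to 111 FPKM in unwounded abdomen and 26.2 to 53.5 in its wounds, and 108 to 392 in unwounded back and 37.9 to 84.2 in its wounds. In the cheek it was 82.1 to 207 and 39.9 to 157, which overlapped. All 7 had a lower mean in the wounds of each site. The sum of the 4 B cell markers, at 0.41 to 3.31 FPKM throughout, was 1.45, 2.52 and 3.05 times its unwounded mean in wounds of abdomen, back and cheek, and that of the 5 pericyte markers 1.19, 1.30 and 1.23 times, with Abcc9 and Kcnj8 lower at all sites. The 5 proliferation markers, all higher in the means of each site, summed to 1.93, 2.13 and 1.59 times, and the 8 neuron markers, at 0.26 to 1.26 FPKM, to 0.546, 0.747 and 0.842 times. The proliferation sum rose in 3 of 4 cheek mice, and the cheek groups overlapped. In cheek mouse 4, whose unwounded library stood apart, it went from 82.6 FPKM to 70.2 in the wound. By their means, 3 neuron markers were higher and 3 lower in abdomen wounds, 4 and 4 in back wounds, and 4 and 1 in cheek wounds. Rbfox3 was lower at each site, at 0.49 against 0.105, 0.33 against 0.11 and 0.51 against 0.205 FPKM in wounds.

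Some members of the same family lay on the same chromosome. Efna1 (chromosome 3, 89271730 to 89280951), Efna3 (89313899 to 89322939) and Efna4 (89333393 to 89338028) were neighbours, and in the cheek all 3 fell in wounds, by 0.24, 0.72 and 0.55 on the log2 scale, the first of them not past the threshold without cheek mouse 4. Sema3a, Sema3c, Sema3d and Sema3e all lie on chromosome 5. Of these, Sema3c and Sema3d fell at all sites, Sema3e in abdomen and cheek, and Sema3a at none, with changes of -0.38, 0.03 and 0.36 in abdomen, back and cheek.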
